A study of Mus musculus with 6 samples.

Results

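Lysosomal proteases and their inhibitor were compared between 2 fractions of cells sorted from mouse pancreatic tumours. The 10 genes were taken by name from the 49671 genes of the tables: the papain-family cathepsins Ctsb, Ctsc, Ctsh, Ctsk, Ctsl, Ctss and Ctsz, the asparaginyl endopeptidase legumain (Lgmn), the aspartic protease cathepsin D (Ctsd) and the secreted inhibitor cystatin C (Cst3). All 10 were found and all passed the filter on low counts. FC1199 cells, a mouse pancreatic cancer line, had been injected into the pancreas of C57BL/6J hosts aged 8 weeks that carried Rosa-mTmG and Fabp4-Cre, and the tumours were taken after 4 weeks, at a host age of 12 weeks. With Rosa-mTmG, Cre activity turns a cell from red (Tomato) to green (GFP), and every host expressed Cre from the Fabp4 promoter. Cells with Podoplanin on their surface were sorted by colour into a GFP fraction, which the labels call cancer-associated fibroblasts (CAFs) derived from stellate cells, and a Tomato fraction, which they call CAFs of other origin. There were 3 libraries of each. Separate animals are not stated for the replicates, so all p-values rest on the spread between these samples, which may be technical. The reporter marks cells that made Cre at any earlier time and names no cell type by itself.

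Cathepsins are made as inactive precursors, are carried to the lysosome by mannose 6-phosphate receptors, and are activated there by low pH and by one another. Legumain processes several of them, and cystatin C, secreted by most cells, blocks the papain family tightly and legumain through a separate site. In tumour stroma these enzymes are known from macrophages and from activated fibroblasts, where cathepsin K cuts collagen, while cathepsin S is known from antigen-presenting cells, where it trims the invariant chain of MHC class II.

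The total count ran from 33378377 to 42154933 per library, and the members rested on 640 to 117471 reads each, so counting error was small beside the spread between libraries. The gate gene Pdpn, which encodes Podoplanin, had 404 ± 35.5 CPM (reads per 1000000 reads of the library, after TMM scaling; SD, n = 3) in GFP and 433 ± 19.6 in Tomato, and did not pass the test (edgeR, adjusted p = 0.481). Fibroblast genes were high in both fractions, with a larger sum in GFP (130471 to 145158 against 63922 to 97186 CPM). Markers of other cell types also moved with the fractions. Of 18 macrophage and monocyte markers, none at 0 counts in either fraction, 17 were lower in GFP and none higher (summed level 200.2 to 294 CPM in GFP and 1165 to 2888 in Tomato), of 9 mesothelial markers 8 were lower (154 to 171 against 1168 to 1569 CPM), and of 9 endothelial markers 7 were higher (394 to 632 against 80.6 to 154 CPM). In bulk RNA fewer cells of a type and less RNA per cell cannot be told apart. Along the main axis of variation, which held 79.7% of the variance, Tomato replicate 3 stood farthest from GFP, and it had the highest macrophage sum.

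Among the 10 genes, Ctss, Ctsc, Cst3 and Lgmn were lower in GFP and Ctsk was higher, while Ctsb, Ctsl, Ctsh, Ctsz and Ctsd did not pass (edgeR quasi-likelihood test, adjusted p under 0.05 over all genes). The background was 15.7% of 15608 genes tested called lower and 13.1% called higher. The 3 GFP libraries did not overlap the 3 Tomato libraries for 7 of the 10 genes, where the background was 48.6%. The median log2 fold change (GFP over Tomato) of the 10 genes was -0.23, against 0.00 over all genes tested. The differences ran from a 10.1-fold lower level of Ctss to a 1.5-fold higher level of Ctsk.

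**Figure D1:**
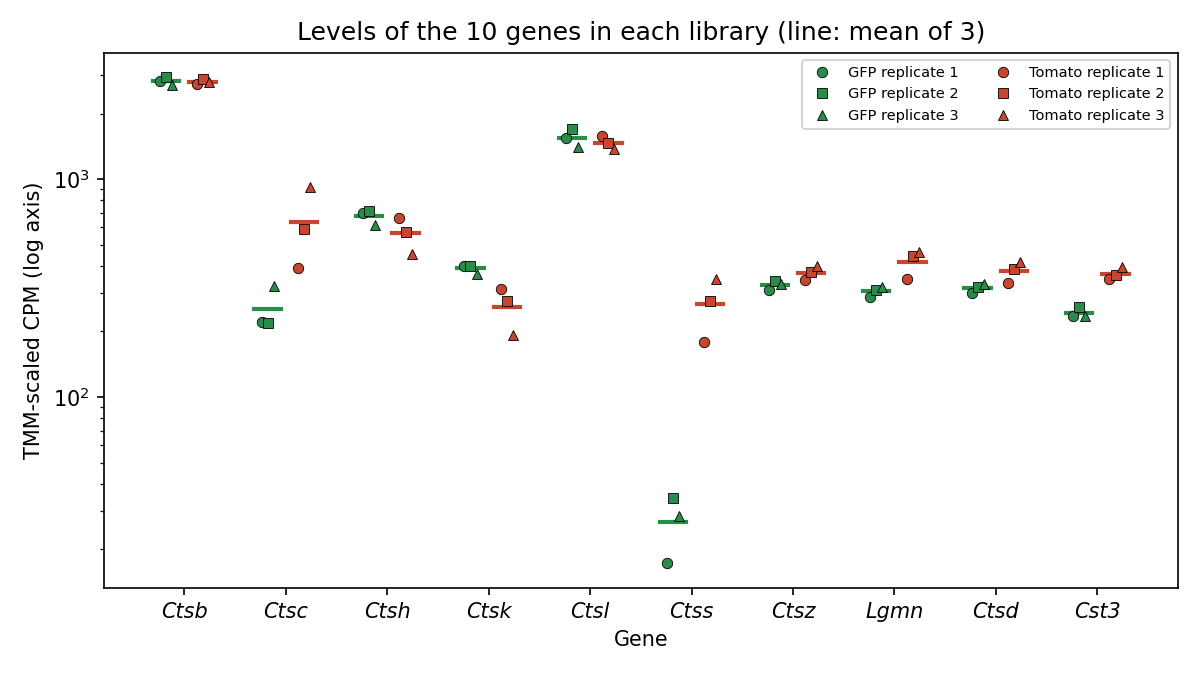
TMM-scaled CPM on a log axis (vertical) of each of the 10 genes (horizontal) in each library, green for GFP and red for Tomato, with a line at the mean of 3 libraries. Ctss shows the widest gap, with 17.2 to 34.3 CPM in GFP and 179 to 348 in Tomato, and the points of Ctsb, Ctsl and Ctsh overlap between fractions.

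Ctss, the cathepsin S gene (ENSMUSG00000038642, chromosome 3, 95526786 to 95556403, plus strand, GRCm38), stood at 17.2, 34.3 and 28.3 CPM in GFP replicates 1 to 3 and at 179, 277 and 348 CPM in Tomato. Every Tomato library was above every GFP library, and no Tomato value came near the highest GFP value. The log2 fold change was -3.33 ± 0.33 (SE; edgeR adjusted p = 0.000865), a level 10.1-fold higher in Tomato with a 95% interval of 5.86 to 17.3. The call held in each of the 6 fits that left out a library (log2 fold change -3.56 to -3.10) and in all 13 other settings (-3.51 to -3.04).

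Ctss moved with macrophage genes and with MHC class II genes, and their part in its difference was not tested. Per 100 CPM of Lyz2, the lysozyme gene of macrophages and other myeloid cells, Ctss had 25.8, 27.6 and 26.6 CPM in GFP and 32.2, 29.6 and 24.9 CPM in Tomato. These ratios overlapped between the fractions, but Lyz2 was picked as the gene with the profile nearest to Ctss, so the choice fixes that overlap. Per 100 CPM of the whole macrophage list Ctss had 8.61 to 11.9 CPM in GFP and 12.0 to 15.3 in Tomato, ranges that lay next to each other without overlap. The 7 genes of the invariant chain and MHC class II were all lower in GFP (summed 128 to 156 against 2003 to 2857 CPM), among them Cd74, the invariant chain gene and a substrate of cathepsin S (log2 fold change -4.27, edgeR adjusted p = 4.29e-06). Against their sum Ctss was higher in GFP, at 13.4 to 22.02 per 100 CPM compared with 8.92 to 12.2 in Tomato.

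**Figure D2:**
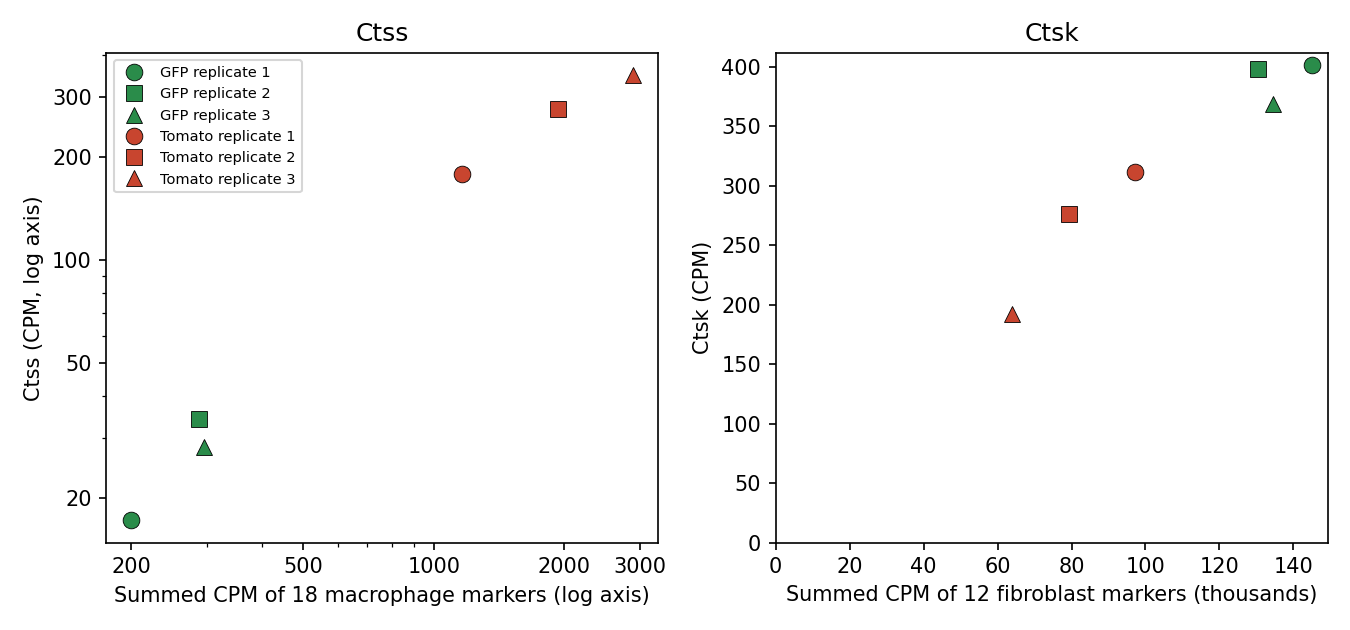
Left, Ctss (CPM) against the summed CPM of 18 macrophage markers, both on log axes; right, Ctsk (CPM) against the summed CPM of 12 fibroblast markers in units of 1000 CPM, on linear axes from 0, with 1 point per library. Ctss was high in the libraries with 1165 to 2888 CPM of macrophage markers, and Ctsk was lowest, at 192 CPM, in the library with the lowest fibroblast sum.

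Ctsc encodes cathepsin C, the dipeptidyl peptidase that activates serine proteases of neutrophil and lymphocyte granules (ENSMUSG00000030560, chromosome 7, 88278085 to 88310888, plus strand). It stood at 221, 219 and 322 CPM in GFP and at 389.8, 588 and 922 CPM in Tomato. The fractions did not overlap, and the Tomato libraries differed by 2.36 times from lowest to highest, the widest spread of the 10 genes within a fraction. The log2 fold change was -1.32 ± 0.32 (edgeR adjusted p = 0.0226), a 2.49-fold higher level in Tomato (95% interval 1.49 to 4.18). Leaving out GFP replicate 1 (adjusted p = 0.0564) or GFP replicate 2 (0.0662) ended the call, as did testing with no filter on low counts (0.117). Per 100 CPM of macrophage markers Ctsc had 33.5, 30.4 and 31.9 CPM in the Tomato libraries but 76.3 to 110.2 in GFP. Within Tomato it varied in proportion to that sum, and in GFP it lay above that proportion. All of the 10 genes but Ctss stood higher in GFP by this measure, whose divisor was lower there (200.2 to 294 against 1165 to 2888 CPM). Of 2 neutrophil granule proteases that it activates, Elane had 6 reads over all libraries and Ctsg had 0, and other substrates were not counted.

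Ctsk, the gene of cathepsin K (ENSMUSG00000028111, chromosome 3, 95499256 to 95509362, plus strand), was the only one of the 10 called higher in GFP. It stood at 401, 398 and 368 CPM in GFP and at 312, 276 and 192 CPM in Tomato. The fractions did not overlap, and GFP libraries lay within 1.09 times of each other while Tomato libraries spread over 1.62 times. The log2 fold change was 0.58 ± 0.17 (edgeR adjusted p = 0.0313; 1.5-fold, 95% interval 1.15 to 1.94). Leaving out any GFP library (adjusted p = 0.0932, 0.0859 and 0.062 for replicates 1 to 3) or Tomato replicate 2 (0.0774) ended the call, as did scaling by total count alone (0.0524).

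Some fibroblast markers were, like Ctsk, higher in GFP, and their part in its difference was not tested. Of 12 such markers 6 were higher in GFP and none lower, with a median log2 fold change of 0.38, led by the PDGF receptor gene Pdgfrb (0.80, edgeR adjusted p = 0.00151). That count fell to 4 without any GFP library, Tomato replicate 2 or Tomato replicate 3. It was also 4 when corrected for length and GC content, and 5 with scaling by total count alone. It rose to 7 without Tomato replicate 1 and in the fit blocked by replicate number. The sum of the 12 markers was mostly collagen transcripts (Col1a1, Col1a2 and Col3a1). It was 130471 to 145158 CPM in GFP and 97186, 79444 and 63922 CPM in Tomato replicates 1 to 3. Dcn, a fibroblast gene outside the collagens, did not pass (-0.10, adjusted p = 0.695). Osteoclasts also make cathepsin K at high level. Of 8 markers of osteoclasts and multinucleated macrophages 6 were tested, of which Dcstamp, a fusion gene, led those lower in GFP (-4.97, adjusted p = 0.000608) and the transcription factor gene Nfatc1 was higher (1.02, adjusted p = 0.00279). Calcr and Oscar, which mark osteoclasts, had 20 reads each over all libraries and were not tested.

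Ctsk and Ctss lie next to each other on chromosome 3, on the same strand with 17423 bases between them and no other gene of the tables in the gap, and they differed between the fractions in opposite directions. Per length, as RPKM (CPM per kilobase of summed exons), Ctsk exceeded Ctss 20.9-, 10.4- and 11.7-fold in the GFP libraries, while the ratio was 1.57, 0.895 and 0.496 in the Tomato libraries. The ratio did not overlap between the fractions. The 5 promoters below are those of this neighbouring pair and those holding CACGTG, the E-box core that TFEB and related lysosomal regulators are known to bind. They come from RefSeq (GRCm38.p6) and span 250 bases before to 50 bases after a start, written 5′ to 3′ on the gene's strand, with CACGTG in capitals.
Ctss, chr3:95526536-95526835, plus strand: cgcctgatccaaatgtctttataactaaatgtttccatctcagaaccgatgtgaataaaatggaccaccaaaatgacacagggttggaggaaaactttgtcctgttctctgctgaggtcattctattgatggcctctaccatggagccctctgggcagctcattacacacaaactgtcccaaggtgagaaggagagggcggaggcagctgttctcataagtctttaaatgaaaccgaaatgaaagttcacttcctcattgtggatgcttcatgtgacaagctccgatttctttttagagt
Ctsk, chr3:95498960-95499259, plus strand: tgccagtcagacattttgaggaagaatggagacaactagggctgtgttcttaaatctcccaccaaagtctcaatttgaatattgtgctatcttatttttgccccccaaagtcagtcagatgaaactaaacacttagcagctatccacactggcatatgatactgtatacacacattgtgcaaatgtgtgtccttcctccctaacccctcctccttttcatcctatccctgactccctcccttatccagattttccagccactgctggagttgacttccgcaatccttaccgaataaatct
Ctsd, chr7:142387778-142388077, minus strand: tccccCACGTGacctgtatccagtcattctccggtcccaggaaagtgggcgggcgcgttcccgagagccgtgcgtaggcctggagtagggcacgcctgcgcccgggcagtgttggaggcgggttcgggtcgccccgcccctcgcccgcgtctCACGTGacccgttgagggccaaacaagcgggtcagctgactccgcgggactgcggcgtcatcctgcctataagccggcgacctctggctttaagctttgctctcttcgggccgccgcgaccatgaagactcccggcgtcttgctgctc
Ctsl, chr13:64370471-64370770, minus strand: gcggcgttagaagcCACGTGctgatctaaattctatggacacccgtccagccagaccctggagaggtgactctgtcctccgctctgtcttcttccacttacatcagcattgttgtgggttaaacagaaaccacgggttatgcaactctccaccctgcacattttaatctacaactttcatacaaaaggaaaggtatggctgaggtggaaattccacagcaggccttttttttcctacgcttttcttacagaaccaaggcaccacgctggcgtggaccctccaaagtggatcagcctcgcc
Lgmn, chr12:102439043-102439342, minus strand: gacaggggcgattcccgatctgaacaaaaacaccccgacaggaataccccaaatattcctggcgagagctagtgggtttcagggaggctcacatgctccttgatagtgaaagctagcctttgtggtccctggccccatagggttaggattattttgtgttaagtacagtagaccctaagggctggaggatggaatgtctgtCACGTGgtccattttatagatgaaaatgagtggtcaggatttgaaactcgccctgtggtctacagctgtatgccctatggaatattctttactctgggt
The RefSeq promoter table held 9 promoters of 8 of the 10 genes, and none of Ctsb or Ctsh. CACGTG, which reads the same on both strands, stood in 3 of the 9, those of Ctsd, Ctsl and 1 of 2 starts of Lgmn, and in 7.15% of all 32851 promoters of that length. The longer form GTCACGTG, searched on both strands and holding CACGTG, stood in 2 of the 9, Ctsd and that start of Lgmn, and in 2.25% of all. Ctsd had 2 copies of it and the other promoters shown had at most 1. A match describes letters only, and of the genes with a match Lgmn was called lower while Ctsd and Ctsl did not pass.

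Ctsb, a lysosomal endopeptidase and carboxydipeptidase gene (ENSMUSG00000021939, chromosome 14, 63122462 to 63145923, plus strand), stood at 2812, 2935 and 2708 CPM in GFP and at 2740.4, 2869 and 2785 CPM in Tomato. The ranges overlapped and the log2 fold change was 0.01 (edgeR adjusted p = 0.953, 95% interval -0.25 to 0.27). Its direction changed with the scaling and with the library left out. Fdft1 on the opposite strand shares 774 exon bases with it. In GFP replicate 1 the strand columns of Ctsb held 52570 and 52653 reads. Together they exceeded its count for both strands, 104447, so that count left some reads out.

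Ctsl, the gene of the endopeptidase cathepsin L (ENSMUSG00000021477, chromosome 13, 64359337 to 64370890, minus strand), stood at 1548, 1702 and 1409.7 CPM in GFP and at 1574, 1472 and 1371 CPM in Tomato. The fractions overlapped, and the log2 fold change was 0.08 (edgeR adjusted p = 0.655, 95% interval -0.20 to 0.35). Its direction turned under scaling by total count alone and when corrected for length and GC content. The antisense gene Gm47123 shares 1742 of its exon bases and the same-strand pseudogene Gm49230 shares 395. Neither was among the genes counted.

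Ctsh encodes an aminopeptidase (ENSMUSG00000032359, chromosome 9, 90054152 to 90076089, plus strand). It stood at 697, 711 and 617 CPM in GFP and at 663, 571 and 455 CPM in Tomato, with overlapping ranges and a log2 fold change of 0.26 (edgeR adjusted p = 0.206, 95% interval -0.07 to 0.59). With the same correction plus a block for replicate number it passed as higher in GFP (0.35, adjusted p = 0.0242). Tomato replicate 3 was lowest for Ctsh, Ctsk and Ctsl and highest for Ctsc, Ctss, Ctsd, Ctsz, Lgmn and Cst3 among the Tomato libraries.

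Ctsz, the gene of a carboxypeptidase also called cathepsin X (ENSMUSG00000016256, chromosome 2, 174427493 to 174439039, minus strand), stood at 309, 341 and 329 CPM in GFP and at 343, 373 and 400.0 CPM in Tomato. The fractions did not overlap, by a margin of about 2 CPM between the nearest libraries, and the log2 fold change of -0.19 did not pass (edgeR adjusted p = 0.174, 95% interval -0.41 to 0.03). Scaled by total count alone it passed as lower (-0.36, adjusted p = 0.0428), and corrected for length and GC content it stood at -0.03.

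Lgmn (ENSMUSG00000021190, chromosome 12, 102394084 to 102439813, minus strand) stood at 287, 310.3 and 320.2 CPM in GFP and at 349.8, 445 and 461 CPM in Tomato. All Tomato libraries were above all GFP libraries. The log2 fold change was -0.45 ± 0.12 (edgeR adjusted p = 0.0268; 1.37-fold higher in Tomato, 95% interval 1.13 to 1.66). Leaving out any GFP library (adjusted p = 0.1, 0.0713 and 0.0595 for replicates 1 to 3) or Tomato replicate 2 (0.103) ended the call, as did correcting for length and GC content (-0.29, 0.0778), but not the same correction with a block for replicate number.

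Ctsd (ENSMUSG00000007891, chromosome 7, 142375911 to 142388038, minus strand), the aspartic protease gene of the set, stood at 299.8, 319 and 329 CPM in GFP and at 335, 387 and 415 CPM in Tomato. The fractions did not overlap, and the log2 fold change of -0.26 did not pass (edgeR adjusted p = 0.0978, 95% interval -0.51 to -0.02, unadjusted). It passed as lower in the fit blocked by replicate number (-0.26, adjusted p = 0.0406), when Tomato replicate 1 was left out (-0.35, adjusted p = 0.0374) and when scaled by total count alone (-0.43, adjusted p = 0.0307). The gene model Gm49369 shares 808 of the 2351 exon bases of Ctsd on the same strand and had 0 counts in every library, and how reads on shared bases were counted is not given in the sources used here, so the level of Ctsd is uncertain.

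Cst3, the cystatin C gene (ENSMUSG00000027447, chromosome 2, 148871722 to 148875692, minus strand), stood at 236, 259.7 and 234 CPM in GFP and at 347, 362 and 394 CPM in Tomato. The fractions were well apart and each varied little, with SDs of 14.1 and 24.1 CPM. The log2 fold change was -0.59 ± 0.10 (edgeR adjusted p = 0.00341; 1.51-fold higher in Tomato, 95% interval 1.30 to 1.76). The call held without each library in turn (-0.64 to -0.55) and in all 13 other settings, where the smallest value, -0.38, came from correcting for length and GC content. The inhibitor thus differed by less than Ctss and Ctsc in size and was, with Ctss, called under every setting tried.

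**Figure D3:**
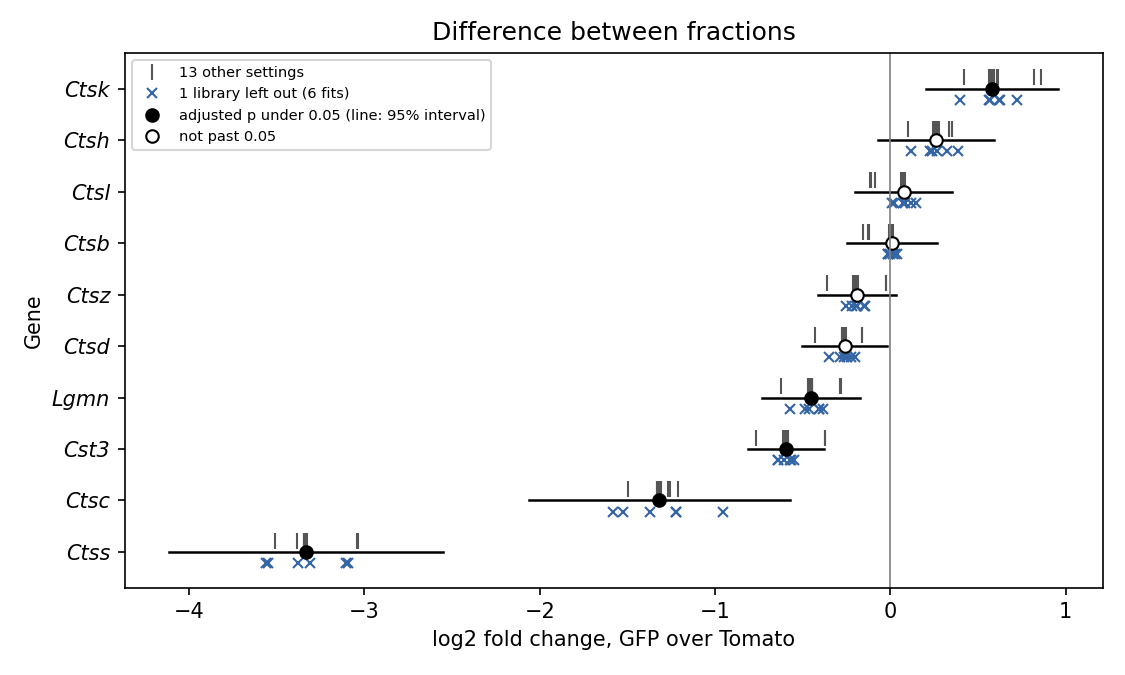
Log2 fold change of GFP over Tomato (horizontal) for each gene (vertical), with its 95% interval as a line, a filled circle where the adjusted p was under 0.05 and an open one otherwise. Ticks show 13 other settings and crosses 6 fits that each left out 1 library. Ctss, from -3.56 to -3.04 over all of these, stands apart from the other 9 genes.

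Per length, Ctsb was the highest of the 10 in both fractions, at 466 ± 18.8 RPKM in GFP and 462 ± 10.8 in Tomato, which ranked 71st and 66th among 13904 protein-coding genes tested. In GFP it was followed by Ctsk (257 ± 11.9), Ctsl (239 ± 22.5), Ctsz (226 ± 11.2), Cst3 (192 ± 11.2), Ctsh (150.0 ± 11.3), Ctsd (134 ± 6.32), Lgmn (132 ± 7.41), Ctsc (43.7 ± 10.1) and Ctss (19.6 ± 6.36). Neighbours in that order that overlapped over the 3 libraries were Ctsk with Ctsl, Ctsl with Ctsz, Ctsh with Ctsd and Ctsd with Lgmn. In Tomato the order after Ctsb was Cst3 (290.3 ± 19.1), Ctsz (258 ± 19.7), Ctsl (227 ± 15.6), Ctss (197 ± 62.6), Lgmn (180.2 ± 25.9), Ctsk (172 ± 40.6), Ctsd (161 ± 17.3), Ctsh (125 ± 23.2) and Ctsc (109 ± 46.3), where each gene after Ctsb overlapped its next neighbour. Ctss ranked 2187th among protein-coding genes in GFP and 197th in Tomato. With the length of the longest transcript in place of the summed exons, Ctsb stayed highest in both fractions, while 3 of the 10 genes in GFP and 4 in Tomato kept their rank within the set.

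The sum of the 7 papain-family genes was 1402 ± 60.1 RPKM in GFP and 1551 ± 57.0 in Tomato. The libraries did not overlap, at 1350 to 1468 RPKM in GFP and 1486 to 1592 in Tomato. Its make-up differed as well, most in Ctss. Ctss made up 0.914%, 1.72% and 1.54% of the sum in the GFP libraries and 8.85%, 12.9% and 16.1% in the Tomato libraries. Ctsk made up 17.9% to 19.1% in GFP and 7.98% to 13.9% in Tomato, and Ctsb 33.0% to 33.5% and 28.9% to 30.5%. None of these 3 shares overlapped between the fractions, and that of Ctsz (15.4% to 16.9% and 16.0% to 17.4%) did. The level of Ctsb itself was alike, at 466 RPKM in GFP and 462 in Tomato. Its share was lower in Tomato because the sum was larger there.

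**Figure D4:**
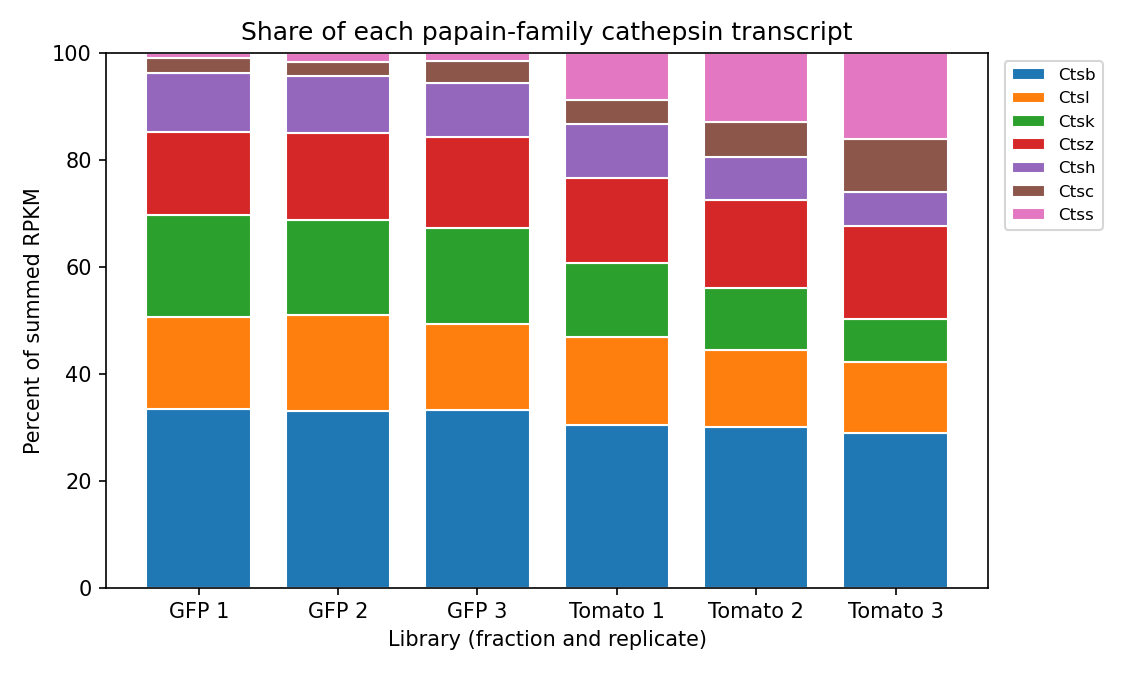
Percent of the summed RPKM of 7 papain-family cathepsins (vertical) held by each gene in each library (horizontal). Ctsb is the largest part in all 6 libraries, at 28.9% to 33.5%, and Ctss goes from at most 1.72% in GFP to at least 8.85% in Tomato.

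Set against the inhibitor, the 7 papain-family genes and Lgmn together had 8.10, 7.81 and 8.04 RPKM per RPKM of Cst3 in GFP and 5.98, 6.18 and 5.76 in Tomato. The ratio was higher in every GFP library, although the papain-family sum (1402 against 1551 RPKM) and Lgmn (132 against 180 RPKM) were lower in GFP. The higher ratio came from its divisor Cst3, at 192 RPKM in GFP and 290 in Tomato. Single enzymes differed in this balance: Ctsk stood at 1.28 to 1.42 per Cst3 in GFP and 0.408 to 0.753 in Tomato. Ctsb stood at 2.36 to 2.49 and 1.48 to 1.66, though its own level was 466 RPKM in GFP and 462 in Tomato. The ratio of Ctsb thus differed through Cst3. Ctss was lower in GFP, at 0.068 to 0.123 against 0.481 to 0.823 in Tomato, and the means of Ctsc lay the same way (0.229 and 0.370) with overlapping libraries. These are ratios of transcripts, which do not measure protein or activity, and no test was made of them.

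Of 106 genes in 7 companion lists 95 were tested, and 8 were higher and 19 lower in GFP, that is 8.42% and 20%, where all genes gave 13.1% and 15.7%. Of 12 other cathepsins and endolysosomal peptidases tested 2 were lower and none higher. Napsa, an aspartic protease relative of cathepsin D, had 0.27 ± 0.17 CPM in GFP and 7.37 ± 2.05 in Tomato (log2 fold change -4.78, edgeR adjusted p = 0.000261). The other was Ifi30, a lysosomal thiol reductase gene of antigen-presenting cells (-1.09, adjusted p = 0.00278). The ubiquitous Ctsa (237 ± 5.01 against 263 ± 9.58 CPM) and Ctso (98.0 ± 8.75 against 111 ± 11.7 CPM) did not pass. In the fit blocked by replicate number 2 of the 12 were higher, the cathepsin F gene Ctsf (0.36, edgeR adjusted p = 0.0104) and the carboxypeptidase gene Scpep1 (0.28, adjusted p = 0.0259).

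Of 15 other cystatin genes 5 were tested, with 3 higher and 1 lower. Cstb, the cytosolic inhibitor cystatin B, was lower (128 ± 10.4 against 203 ± 28.2 CPM, log2 fold change -0.66, edgeR adjusted p = 0.00547). The 3 higher genes encode secreted plasma proteins of the cystatin superfamily: Kng1 (22.8 ± 1.46 against 11.1 ± 2.73 CPM, adjusted p = 0.0041), Ahsg (15.5 ± 2.01 against 6.76 ± 2.08 CPM, adjusted p = 0.00602) and Fetub (0.70, adjusted p = 0.0397). Fetub no longer passed when GFP replicate 2 (0.113), GFP replicate 3 (0.105), Tomato replicate 1 (0.0701) or Tomato replicate 3 (0.0553) was left out, nor with scaling by total count alone (0.0712) or with the reads of 1 strand column (0.0737). The stefin genes Stfa1, Stfa2, Stfa2l1 and Stfa3 held 4 to 24 reads over all libraries and were not tested, and being near-identical copies they would share reads.

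Among 31 glycosidases, sulfatases and lipid hydrolases 2 were higher, led by the acid glucosidase gene Gaa (0.56, edgeR adjusted p = 0.021), and 3 lower, led by the galactosidase gene Gla (-0.57, adjusted p = 0.00616). Gaa no longer passed when GFP replicate 1 (0.0775), GFP replicate 2 (0.0542) or Tomato replicate 2 (0.0687) was left out, or when corrected for length and GC content (0.0582). In the blocked fit 7 of the 31 were higher. Of 15 lysosomal activators and membrane proteins 1 was higher, the cholesterol transporter gene Npc1 (0.40, adjusted p = 0.0151), and 3 were lower, led by Laptm4b (-1.06, adjusted p = 0.00625). Npc1 no longer passed when GFP replicate 1 (0.0578) or Tomato replicate 2 (0.0662) was left out, nor in 4 of the 13 other settings. In the blocked fit Grn, the progranulin gene, was a further gene higher (0.29, adjusted p = 0.035). The membrane protein genes Lamp1 (760.1 ± 36.4 against 697 ± 77.0 CPM) and Lamp2 (1286 ± 33.7 against 1235 ± 120 CPM) and the activator gene Psap (1550.0 ± 149 against 1534 ± 30.4 CPM) did not pass.

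The V-ATPase, the proton pump that acidifies the lysosome, had 8 of 18 genes lower and none higher, with a median log2 fold change of -0.25. Atp6v0d2, a subunit known from macrophages and osteoclasts, was lowest (1.60 ± 0.65 against 8.38 ± 2.06 CPM, -2.40, edgeR adjusted p = 0.00129). The count fell to 1 when any GFP library or Tomato replicate 2 was left out, and to 3 when Tomato replicate 3 was. It was 4 when corrected for length and GC content, 6 with the block added to that correction, and 7 with no filter. It rose to 9 with DESeq2, to 10 in the blocked fit or without Tomato replicate 1, and to 11 with scaling by total count alone. The blocked fit also called Atp6v0a2 higher (0.28, edgeR adjusted p = 0.0243). In the sorting list 2 of 10 genes were higher, led by Igf2r, which encodes the large mannose 6-phosphate receptor (90.3 ± 16.6 against 51.1 ± 8.95 CPM, 0.82, adjusted p = 0.00919), and Sort1 was lower (-0.58, adjusted p = 0.0317). Sort1 no longer passed when GFP replicate 1 (0.0978), GFP replicate 3 (0.063), Tomato replicate 2 (0.0859) or Tomato replicate 3 (0.0588) was left out. The blocked fit called 3 of the 10 lower, adding M6pr, which encodes the small mannose 6-phosphate receptor (-0.27, adjusted p = 0.0259), and Ap1m1 (-0.23, adjusted p = 0.0387). Of the 4 MiT/TFE transcription factor genes, which switch on lysosomal genes, Tfec, the member best known from macrophages, was lower (0.698 ± 0.306 against 2.52 ± 0.752 CPM, -1.85, adjusted p = 0.00878). Tfeb (-0.12, adjusted p = 0.373), Tfe3 (0.19, adjusted p = 0.133) and Mitf (0.55, adjusted p = 0.133) did not pass, although Mitf was higher in the blocked fit (0.59, adjusted p = 0.00649).

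Other cells that the gate could hold were measured by their markers, and their part in the differences of the 10 genes was not tested. In the macrophage list Ms4a7 led (0.766 ± 0.184 against 11.1 ± 3.43 CPM, edgeR adjusted p = 0.000108), and the defining genes Csf1r (18.6 ± 3.07 against 87.8 ± 30.8 CPM), Cd68 (7.77 ± 2.43 against 41.0 ± 15.8 CPM) and Adgre1 (3.61 ± 1.69 against 16.7 ± 7.88 CPM) were lower in GFP without being at 0. Adgre1 no longer passed with no filter on low counts (adjusted p = 0.0789). Dendritic cell markers were low in both fractions, at 27.8 to 29.1 summed CPM in GFP and 44.9 to 59.6 in Tomato. Most of that sum in GFP was Zbtb46, which did not pass (24.9 ± 0.445 against 24.1 ± 1.85 CPM, edgeR adjusted p = 0.724). Of 4 dendritic cell markers tested 2 were lower, led by Itgax (-3.69, adjusted p = 0.0003). Neutrophil markers were also low, at 2.42 to 4.09 summed CPM in GFP and 23.1 to 32.7 in Tomato, led by S100a8 (-3.87, adjusted p = 0.000151). Mesothelial Nkain4 (-2.84, adjusted p = 3.88e-05) and the keratin gene Krt8 (-3.56, adjusted p = 4.29e-06) were lower in GFP, and endothelial Flt4 was higher (2.81, adjusted p = 0.00117). Epithelial markers summed to 64.3 to 84.4 CPM in GFP and 543 to 663 in Tomato. Acinar markers summed to 115 to 411 and 392 to 768 CPM, and none of the 6 tested passed (edgeR), although 6 did in the blocked fit.

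For each of the 10 genes the protein-coding gene with the most similar profile over the 6 libraries was sought among 8902 genes of at least 10 CPM on average, by the root mean square difference of log2(CPM + 1) centred on each gene's mean. The nearest to Ctss was Lyz2 (difference 0.117, where the profile of Ctss itself spread by 1.69), with 99.1 ± 29.4 CPM in GFP and 963 ± 423 in Tomato. The nearest to Ctsk was Bmper, a gene for a secreted BMP-binding protein (0.022; 481 ± 22.9 against 321 ± 71.0 CPM), to Ctsc Cadm4 (0.09; 21.1 ± 5.86 against 57.1 ± 25.5 CPM), to Lgmn Cln8 (0.022; 26.7 ± 0.928 against 36.9 ± 5.59 CPM) and to Cst3 Emp3 (0.032; 102 ± 8.98 against 151 ± 10.5 CPM). For the genes that did not pass they were Pea15a for Ctsb (0.019), Nptn for Ctsl (0.026), Zfp703 for Ctsh (0.028), Mff for Ctsz (0.014) and Eef1akmt2 for Ctsd (0.013). With 6 libraries and 8902 candidates close matches are frequent, and the likeness is a description.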

How the data were processed

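RNA-seq was compared between 3 GFP and 3 Tomato libraries. The authors deposited raw read counts per gene, per the file headers for both strands together and for each strand. Per the submitters' processing notes the tools were Trim Galore 0.4.3 and STAR 2.5.2b, with genome build GRCm38 and no roles given, and the annotation release is not given in the sources used here. Reads of both strands together were analysed, since the strand columns held nearly equal totals (ratio 1.002 to 1.006), so reads of antisense partners cannot be told apart. Of 49671 gene identifiers 49412 matched GENCODE M21, which gave names, positions and exon lengths.

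Counts were compared with edgeR 4.0.16 (R 4.3.3; two-sided quasi-likelihood test, robust, TMM scaling, filterByExpr), with Benjamini-Hochberg adjustment over 15608 genes and a threshold of 0.05. Alternatives used DESeq2 1.42.0, limma 3.58.1 (voom), other scalings and filters, 1 strand column, protein-coding genes only, no robust estimation, offsets for transcript length and GC content (splines with 4 degrees of freedom, centred on their median), a replicate block, and leaving out each library. The fit was checked on simulated data with the same spread for all genes, no link between libraries of equal number and few changed genes. Since the real data differ from that setting, the check does not measure how reliable the calls are. Libraries of equal number deviated together from their group means (correlations 0.487, 0.21 and 0.422), so the numbers may pair the libraries, although no label states it. The reported values come from the fit with no block, and blocked values stand beside them for some of the calls and counts that changed. In the blocked fit 4 of 15 lysosomal activators and membrane proteins were lower, instead of 3. Endothelial markers called higher were 8 instead of 7, and mesothelial markers called lower were 7 instead of 8. The common biological coefficient of variation was 0.158.

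The 10 genes and the companion lists were chosen with earlier results of these data known. Named beside the 10 genes are, in each list, the gene higher and the gene lower with the smallest adjusted p, the markers Adgre1, Csf1r, Cd68 and Pdpn, and the protein-coding gene with the profile nearest to each of the 10. Ifi30, Fetub, Ahsg, Ctsa, Ctso, Psap, Lamp1, Lamp2, Tfeb, Tfe3, Mitf, Lyz2, Dcn, Col1a1, Col1a2, Col3a1, Elane, Ctsg, Calcr, Oscar, Ctsf, Scpep1, Grn, Atp6v0a2, M6pr, Ap1m1, Zbtb46, Stfa1, Stfa2, Stfa2l1 and Stfa3 were named after their values were seen.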

Additional observations from a re-analysis of the deposited data

How the results depend on the processing

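Ctss and Cst3 passed in every setting tried, and Ctss, Ctsc, Cst3, Lgmn, Ctsk, Ctsd, Ctsz and Ctsh kept their direction in all of them. Ctsb reversed with upper quartile scaling (-0.006), scaling by total count alone (-0.157), no filter (-0.002) and correction for length and GC (-0.124, and -0.125 with the replicate block). It also reversed in some, but not all, of the 6 fits that left out a library (-0.016 to 0.04). Ctsl reversed with scaling by total count alone (-0.089) and correction for length and GC (-0.109, and -0.117 with the replicate block). None of these values of Ctsb and Ctsl passed. With scaling by total count alone the median of all genes moved to -0.162, which lowers every gene alike.

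Of the 10 genes 1 was higher and 4 lower, with 0 to 1 and 2 to 5 when a library was left out, 0 higher and 6 lower with scaling by total count alone and 2 higher with the replicate block plus correction for length and GC. Of all genes 2049 were higher and 2456 lower, with 833 to 2392 and 1380 to 2793 when a library was left out, 1128 and 3851 with scaling by total count alone (22.7% of calls higher in GFP, instead of 45.5%) and 3137 higher with the replicate block. In the 7 lysosomal lists together the counts were 8 and 19, with 4 to 10 and 8 to 21 when a library was left out, 4 and 30 with scaling by total count alone, 18 higher with the replicate block and 19 higher with correction for length and GC as well. Leaving out a library also lowers the number of samples. With the longest transcript as gene length 3 of the 10 genes in GFP and 4 in Tomato kept their rank, and the ratio of proteases to Cst3 was 6.46 in GFP and 4.85 in Tomato, against 7.98 and 5.97. The replicate block changed no other call among the 10 genes than that of Ctsd, and when added to the correction for length and GC it changed those of Ctsh and Lgmn. Depth did not limit the 10 genes, while list genes below 1 CPM rest on few reads. The protein comparison planned for the papain family was not run.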
